A study of Homo sapiens with 18 samples.

Results

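The regions described here are the open-chromatin sites around HAND1 and HAND2, a pair of related transcription factor genes. All ATAC-seq peaks that touched the body of either gene or the 100 kb on each side of it were taken, in hg19 coordinates (HAND2, chr4:174447652-174451378; HAND1, chr5:153854532-153857824). Peaks of the 18 libraries that overlapped by at least 1 bp were merged into regions. This gave 50 regions, 22 at HAND2 and 28 at HAND1, of 150322 in the whole series, made from 448 of 781454 peaks. ATAC-seq marks open chromatin by where a transposase can insert adapters into DNA, and a peak is a stretch where insertions pile up above the local background.

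The libraries came from Kelly and BE2C, a pair of human neuroblastoma cell lines with amplified MYCN, grown in RPMI with serum; BE2C is a clonal subline. Cells of each line carried pLKO, the empty lentiviral vector, or 1 of 2 shRNAs against AHR, shAhR-1 or shAhR-2. Each of the 6 groups had 3 libraries of cells of 1 line. The labels do not say whether these came from separate cultures, and a p-value here measures nothing beyond how these libraries spread, which may be technical. The peak lists hold no RNA levels, so the extent of AHR knockdown was not analysed here.

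HAND1 and HAND2 encode basic helix-loop-helix factors that bind E-box sequences as dimers with partners such as the E proteins. Both act in heart development, and HAND2 also acts in the sympathetic nervous system, the tissue in which neuroblastoma arises, where it helps to bring up noradrenergic genes. HAND2 and HAND1 are counted among the core regulators of the adrenergic state of neuroblastoma. AHR is a ligand-activated factor that binds DNA with ARNT at sites with a GCGTG core.

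The HAND2 start lies next to that of HAND2-AS1, a long noncoding RNA read from the opposite strand. The next gene beyond the HAND2 3′ end in RefSeq's order is SCRG1. HAND1 is followed downstream by SAP30L, which encodes a part of a histone deacetylase complex, and preceded by LARP1, which encodes an RNA-binding protein of translation control. Whether these neighbours, or genes not named here, reach into the 100 kb on each side was not checked. A peak within 100 kb of HAND1 or HAND2 may lie at a neighbour, and which gene a distal region acts on was not measured.

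The 250 bases before each start are shown because both promoters carried peaks and the shRNAs target a DNA-binding factor. They are from RefSeq on GRCh38.p14, minus strand, 5′ to 3′; whether the GRCh38 start is the same base as the hg19 gene end used here was not checked. Capitals mark matches on either strand to 3 motifs, the AHR core GCGTG, the E-box CANNTG and the GATA core AGATAA, none of which overlap here.
HAND2: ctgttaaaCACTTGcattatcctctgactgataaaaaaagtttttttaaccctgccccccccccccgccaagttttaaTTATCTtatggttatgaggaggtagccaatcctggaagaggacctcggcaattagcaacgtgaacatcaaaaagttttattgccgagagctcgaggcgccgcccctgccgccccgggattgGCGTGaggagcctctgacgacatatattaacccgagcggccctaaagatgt
HAND1: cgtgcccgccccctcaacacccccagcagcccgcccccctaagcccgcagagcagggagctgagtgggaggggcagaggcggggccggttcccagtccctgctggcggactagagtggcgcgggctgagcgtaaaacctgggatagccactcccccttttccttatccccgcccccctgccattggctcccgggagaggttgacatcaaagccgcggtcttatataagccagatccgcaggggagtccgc

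The HAND2 sequence held 1 match to each motif. The AHR core began 51 bases before the start, the GATA core (as its reverse complement) 172 bases and the E-box CACTTG 242 bases before it. The HAND1 sequence held 0 matches to any of the 3. Only these exact strings were searched, so other sites with the letters GATA, which both sequences hold, are not marked. Of the 35116 RefSeq promoter sequences of the same length, 32.2% held the AHR core, 61.8% the E-box and 9.17% the GATA core. The HAND2 sequence was 49.6% G and C and the HAND1 sequence 67.2%, against a median of 58.0%.

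The lists held 9204 to 81637 peaks. The shortest was replicate 1 of Kelly shAhR-1, and the 6 shAhR-2 lists, with 60457 to 81637 peaks, were longer than the other 12, with 9204 to 45023. Replicate 1 of Kelly shAhR-1 stood apart, with 4 peaks at HAND1 and HAND2 together against 13 to 37 in the other libraries. Because a longer list holds weaker peaks, lists were shortened to equal length by keeping the strongest peaks by −log10 p: 9204 in comparisons between lines and within Kelly, 25660 within BE2C. Replicate 1 of Kelly shAhR-1 set the length of 9204, so all results in lists of that length rest on it. Many of them are given with and without it. The Kelly ranks by the pileup of a peak, alone or together with those by −log10 p, are given only with it. Lists of equal length still differed in covered bases over the genome. The median difference over all 200-kb tiles with a peak was 400 bp for shAhR-2 less pLKO and 466 bp for shAhR-2 less shAhR-1. It was −85.3 bp for shAhR-1 less pLKO and 106 bp for BE2C less Kelly. The part of list length in the results was not tested beyond this shortening.

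**Figure D1:**
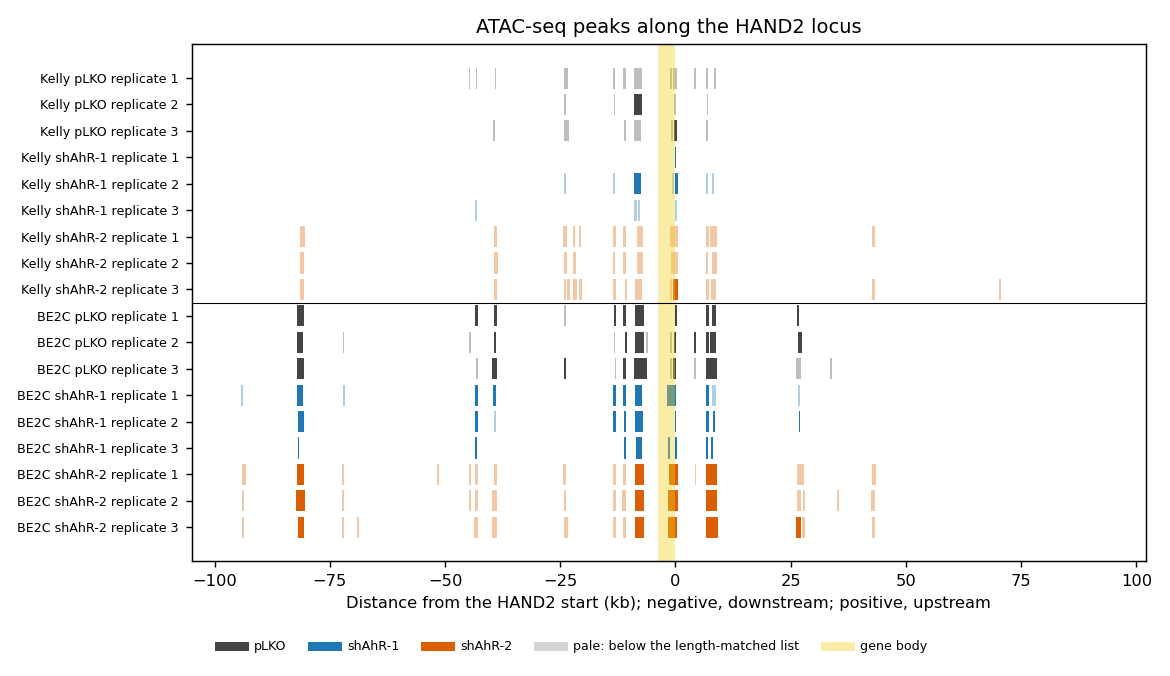
Peaks of the 18 libraries along the HAND2 locus, 1 row per library, by distance from the HAND2 start in kb; colours are conditions, solid bars belong to the length-matched list of the line, pale bars to the rest of the full list, and the yellow band is the gene body. The regions over the start and 7.61 kb downstream recur in nearly all rows, and the BE2C rows hold more solid bars than the Kelly rows, whose lists were kept to 9204 peaks against 25660.

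At HAND2, a region over the start (chr4:174449625-174451924) had a peak in 18 of 18 full lists. A 2895-bp region downstream, centred 7.61 kb from the start and beyond the 3′ end (chr4:174442317-174445211), had a peak in 17, all but replicate 1 of Kelly shAhR-1. These were the only HAND2 regions present in at least 17 libraries. A region 7.85 kb upstream (chr4:174457971-174460494) had a peak in 16. The other 19 were found in 1 to 14 libraries, and 5 of the 22 in a single library. Of the 21 distal HAND2 regions, 14 lay downstream and 7 upstream. The strongest HAND2 peak by −log10 p was at the region 7.61 kb downstream in 11 libraries, over the start in 6 and 23.7 kb downstream in 1.

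HAND1 had more regions that recurred. Its promoter region (chr5:153857136-153858375) had a peak in 17 of 18 lists, again all but replicate 1 of Kelly shAhR-1. Of 28 regions, 8 were present in at least 17 libraries, including 3 in all 18: those 32.2 kb downstream, on the SAP30L side (chr5:153824575-153826750), 8.15 kb upstream (chr5:153865254-153866691) and 98.3 kb upstream (chr5:153955591-153956603). The others in 17 lay 80.2 kb downstream (chr5:153777091-153778061) and 27.7, 39.6 and 45.5 kb upstream (chr5:153884832-153886129, chr5:153896246-153898506 and chr5:153902658-153903967). The region 32.2 kb downstream held the strongest HAND1 peak by −log10 p in 13 libraries. By pileup it was first in 8 and the region 45.5 kb upstream in 7. The region 32.2 kb downstream was also the single member with a peak in all 18 lists shortened to 9204. Whether it lies at the start of SAP30L was not checked, and its bases count in the HAND1 distal stretch described below. Over both loci 4 of 50 regions were in all 18 full lists, against 4.22% of all regions, and 12 were in 1 library, against 37.6%. In each of the 18 full lists the HAND1 locus held more peaks than the HAND2 locus.

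**Figure D2:**
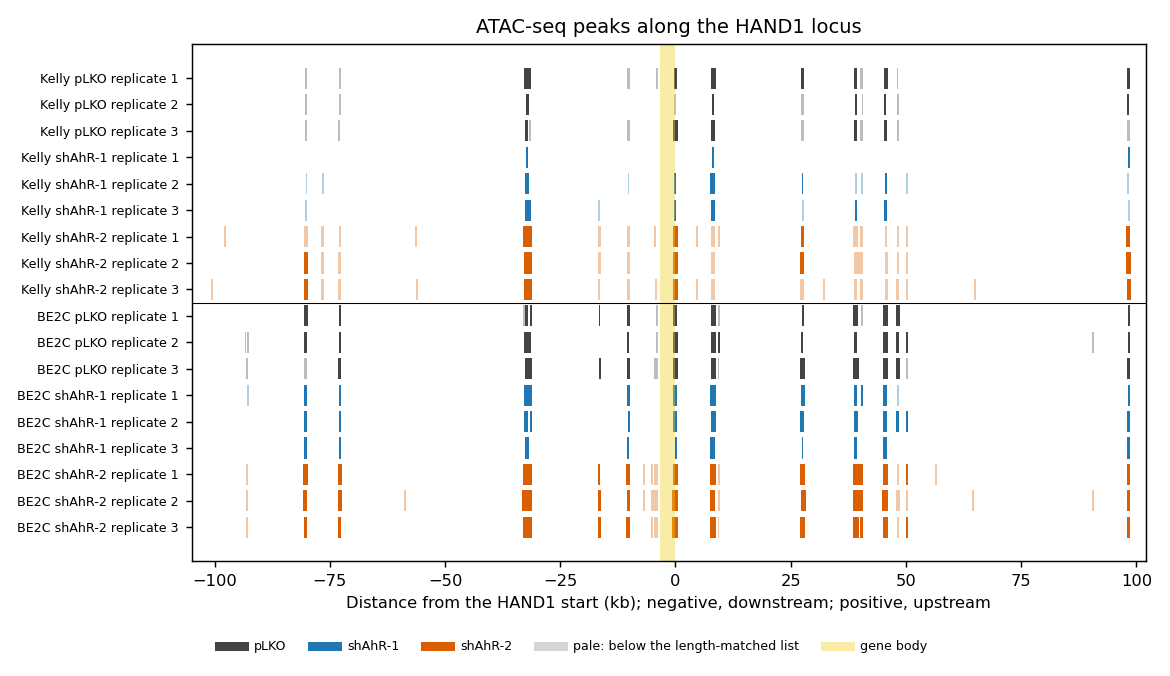
Peaks of the 18 libraries along the HAND1 locus, drawn as for HAND2, by distance from the HAND1 start in kb. Columns of bars 32.2 kb downstream, over the start and 8.15, 39.6, 45.5 and 98.3 kb upstream recur in most rows of both lines; in Kelly shAhR-2 the bars 8.15, 39.6 and 45.5 kb upstream are pale.

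The summits of the promoter peaks lay near the starts, while the merged HAND2 promoter region was centred 0.604 kb downstream of the start. In the 18 libraries the summit of the HAND2 peak lay between −56 and 59 bp from the start, where negative is downstream, with a median of 51 bp upstream. The 17 HAND1 summits lay between −47 and 100 bp, with a median of 35 bp upstream. The authors' fold enrichment, the pileup at the summit over the local background, was 2.96 to 6.91 at the HAND2 promoter, with a median of 4.88, and 3.97 to 8.11 at the HAND1 promoter, with a median of 6.17. It belongs to single peaks and is given only as a description.

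The local background differed between these regions. The fold and p of a peak together give its pileup and its local background, which were divided by the genome-wide background of the library, the lowest local background in its list. At the region 7.61 kb downstream of HAND2 the local background was 4.74 to 24.5 times the genome-wide background, above that of 95.3% to 99.7% of the peaks in the same list. At the HAND2 promoter it was 1.78 to 12.3 times, and at the HAND1 promoter 2.7 to 10.9 times. The median over the peaks of a list was 1.27 to 1.8 times.

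In lists of 9204 peaks the HAND1 distal stretch, the locus without the 2 kb on each side of the start, had 3798 to 9277 bp under peaks in the 9 BE2C libraries, with a median of 4964 bp. In the 9 Kelly libraries it had 926 to 4868 bp, with a median of 3039 bp. The ranges overlapped. The means were 5730 ± 2034 bp (SD, n = 9) in BE2C and 3126 ± 1115 bp (SD, n = 9) in Kelly, and the difference of 2604 bp passed the test (two-sided exact permutation test of lines within condition, p = 0.001, adjusted p = 0.00699 over all tiles of 200 kb). Over the genome, 30.9% of such tiles were called higher in BE2C and 10.0% lower, so a call in this direction was common. The difference without replicate 1 of Kelly shAhR-1 was 2015 bp (p = 0.00075, exact permutation test). By condition, the HAND1 distal means in BE2C and Kelly were 4470 and 3398 bp with pLKO, where the libraries overlapped. They were 4425 and 2244 bp with shAhR-1 and 8296 and 3737 bp with shAhR-2, with no overlap in either, where 3 against 3 cannot go below an exact p of 0.1.

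The HAND2 distal stretch was covered over 1369 ± 1206 bp in BE2C and 333 ± 661 bp in Kelly (SD, n = 9; difference 1036 bp, exact permutation p = 0.04, adjusted p = 0.102). The libraries overlapped, from 0 to 3582 bp in BE2C and from 0 to 1558 bp in Kelly. Without replicate 1 of Kelly shAhR-1, whose omission let the lists be longer, the difference was 2558 bp (exact permutation p = 0.0005). Leaving out any of 11 other libraries raised the exact permutation p to between 0.05 and 0.1, so the call did not hold: replicates 1 and 3 of Kelly pLKO, the 3 of Kelly shAhR-2, replicates 1 and 2 of BE2C pLKO, the 3 of BE2C shAhR-1 and replicate 2 of BE2C shAhR-2, with differences of 755 to 1063 bp. At the promoters no difference passed the test in these lists. The HAND2 promoter had a peak among the 9204 strongest in 4 Kelly and 0 BE2C libraries (difference of BE2C minus Kelly −321 bp, exact permutation p = 0.1). The HAND1 promoter had such a peak in 7 Kelly and 5 BE2C libraries (−113 bp, exact permutation p = 0.589). By condition that HAND1 promoter difference was 501 bp with pLKO, 143 bp with shAhR-1 and −982 bp with shAhR-2, where BE2C was at 0 bp in 3 of 3 libraries and Kelly at 954 to 1015 bp. That HAND1 promoter value turned to 244 bp, higher in BE2C (exact permutation p = 0.0065), without replicate 1 of Kelly shAhR-1, so its direction also depended on that library. In the full lists, which differ in length, it was 297 bp (exact permutation p = 0.00175, adjusted p = 0.0305). The HAND2 promoter difference passed the unadjusted threshold without any 1 of 5 Kelly libraries (exact permutation p from 0.025 to 0.04; replicates 1 and 2 of pLKO, 3 of shAhR-1, 1 and 2 of shAhR-2) and was −32.6 bp without replicate 1 of Kelly shAhR-1. With lists shortened by fold enrichment, the distal differences were 352 bp at HAND2 and 738 bp at HAND1, and neither passed (exact permutation p = 0.2 and 0.19).

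No region of HAND1 or HAND2 had a peak in all 9 libraries of 1 line and in none of the other, in lists of 9204. This was 0 of 12 members tested, against 0.848% of all regions present in BE2C alone and 0.417% in Kelly alone. In the full lists, where BE2C libraries held 25660 to 81637 peaks and Kelly libraries 9204 to 65740, a region 27.1 kb upstream of HAND2 (chr4:174477471-174479519) had a peak in 8 BE2C and 0 Kelly libraries. It was the 1 member with a peak in at least 8 BE2C and no Kelly libraries, against 1.03% of all regions, and 0 members had the reverse, against 0.136%. Its ranks in the 8 BE2C lists ran from 20647 to 33271, and it was among the 25660 strongest peaks in 4 of them. The region 81.4 kb downstream of HAND2 (chr4:174369080-174370904) had a peak in all 9 BE2C lists, at folds of 5.39 to 10.4. In Kelly it had peaks in the 3 shAhR-2 lists alone, the longest of that line. In all, 13 members were found in BE2C lists alone, against 34.0% of all regions, and 10 in Kelly lists alone, against 25.6%.

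**Figure D3:**
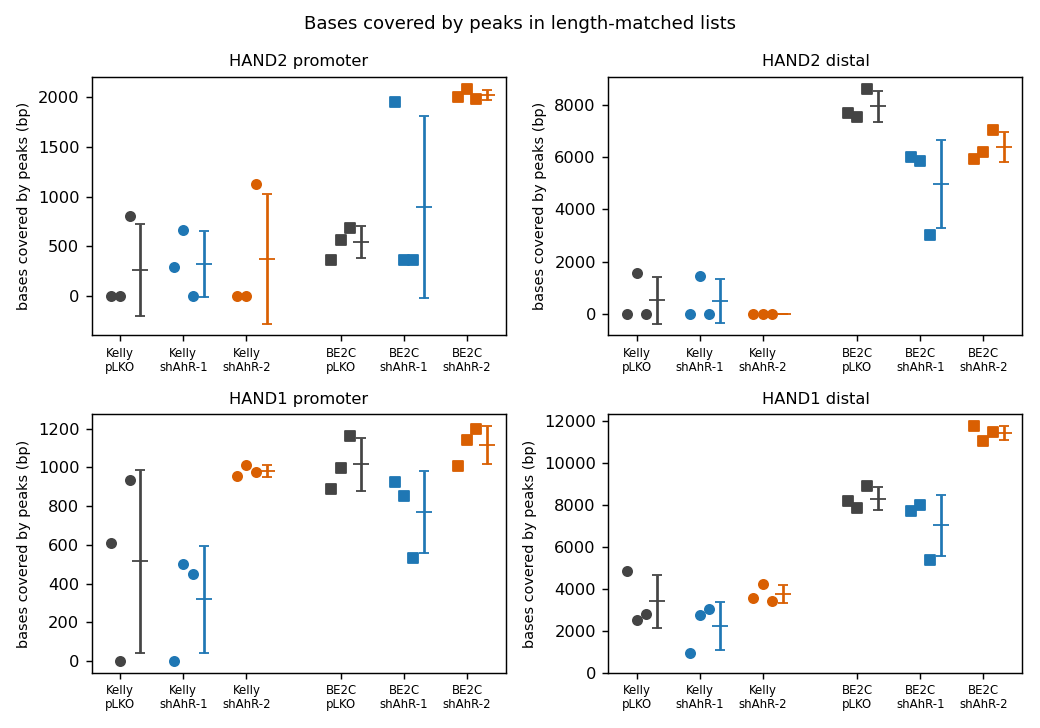
Bases covered by peaks in the promoter and distal stretches of HAND2 and HAND1, in lists of 9204 peaks for Kelly (circles) and 25660 for BE2C (squares); each point is a library, and the bar beside each group is the mean with its SD (n = 3). The 3 BE2C shAhR-2 libraries sit highest at the HAND1 distal stretch, between 11090 and 11774 bp, and the HAND2 promoter of those libraries is covered over 1986 to 2084 bp; list lengths differ between lines, so lines are not to be compared here.

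With shAhR-1, no difference in covered bases passed the test over both lines in the lists of equal length. The HAND2 distal stretch was covered over 7697, 7545 and 8630 bp in the 3 BE2C pLKO libraries and over 6012, 5868 and 3023 bp with shAhR-1. The BE2C groups did not overlap. In Kelly it was 0, 1558 and 0 bp with pLKO and 0, 1439 and 0 bp with shAhR-1. Averaged over both lines the difference was −1515 bp (two-sided exact permutation test of condition within line, p = 0.05, adjusted p = 0.531), which did not pass. The other differences for shAhR-1 against pLKO were 205 bp at the HAND2 promoter (exact permutation p = 0.665), −222 bp at the HAND1 promoter (exact permutation p = 0.2) and −1217 bp at the HAND1 distal stretch (exact permutation p = 0.115). Without replicate 1 of Kelly shAhR-1 the HAND2 distal value was −2236 bp (exact permutation p = 0.005, adjusted p = 0.442) and the HAND1 promoter value −239 bp (exact permutation p = 0.035, adjusted p = 0.754). Both then passed the unadjusted threshold and neither passed after adjustment over all tiles. The HAND1 promoter value also passed without replicate 2 of Kelly pLKO (−350 bp, exact permutation p = 0.02), and the HAND2 promoter value turned to −59.7 bp without replicate 1 of BE2C shAhR-1. In the full lists, which differ in length, the difference passed the unadjusted threshold at the HAND2 distal stretch (−3222 bp, exact permutation p = 0.01), the HAND1 promoter (−318 bp, exact permutation p = 0.01) and the HAND1 distal stretch (−2677 bp, exact permutation p = 0.02), with adjusted p of 0.492, 0.827 and 0.492.

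With shAhR-2, HAND1 had more covered bases than with pLKO, as had much of the genome. The HAND1 promoter was covered over 611, 0 and 934 bp in Kelly pLKO and 954, 1015 and 978 bp in Kelly shAhR-2. In BE2C it was 887, 999 and 1161 bp with pLKO and 1007, 1141 and 1198 bp with shAhR-2. The groups did not overlap in Kelly and overlapped in BE2C. The mean difference was 284 bp (exact permutation p = 0.04, adjusted p = 0.212), and 18.1% of all 4-kb tiles were called higher and 0.188% lower. At the HAND1 distal stretch the BE2C values were 8178, 7847 and 8927 bp with pLKO and 11774, 11090 and 11481 bp with shAhR-2, with no overlap. In Kelly they were 4868, 2534 and 2792 bp and 3543, 4225 and 3443 bp, and overlapped. The mean difference of 1735 bp (exact permutation p = 0.03, adjusted p = 0.0935) stood beside 33.7% of 200-kb tiles called higher and 0.67% called lower. Without replicate 1 of Kelly shAhR-1 the distal difference was 3184 bp (exact permutation p = 0.005) and the promoter difference 187 bp (exact permutation p = 0.04). The distal call was lost (exact permutation p of 0.05 to 0.055) without replicate 2 or 3 of Kelly pLKO or replicate 2 of Kelly shAhR-2. The promoter call was lost (exact permutation p of 0.055 to 0.12, differences of 155 to 291 bp) without any 1 of 8 libraries: replicate 2 of Kelly pLKO, the 3 of Kelly shAhR-2, replicates 1 and 2 of BE2C pLKO and replicates 2 and 3 of BE2C shAhR-2. With lists shortened by fold enrichment both turned negative, to −508 bp at the promoter and −657 bp at the distal stretch. The number of HAND1 distal peaks was not higher: 11.3 with pLKO and 11.0 with shAhR-2 on average in BE2C, and 5.0 and 3.33 in Kelly, so the peaks counted were wider.

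The HAND2 promoter peak was wide in BE2C shAhR-2. It covered 369, 567 and 689 bp with pLKO, 1955, 368 and 368 bp with shAhR-1, and 2000, 2084 and 1986 bp with shAhR-2. All 3 shAhR-2 libraries were above all others of the line, with replicate 1 of shAhR-1 close below. In Kelly, 2 of 3 libraries were at 0 bp with pLKO and with shAhR-2, and the mean difference over both lines was 794 bp (exact permutation p = 0.05, adjusted p = 0.212), which did not pass. When replicate 1 of Kelly shAhR-1 was left out, and the Kelly lists were longer, it was 1070 bp (exact permutation p = 0.005, adjusted p = 0.0343), and without replicate 1 or 2 of Kelly shAhR-2 it was 888 bp (exact permutation p = 0.035). The HAND2 distal stretch was covered over 5925, 6213 and 7037 bp in BE2C shAhR-2, all below the pLKO libraries given above, and over 0 bp in the 3 Kelly libraries. The mean difference was −1042 bp (exact permutation p = 0.05, adjusted p = 0.134), and −1862 bp without replicate 1 of Kelly shAhR-1 (exact permutation p = 0.005, adjusted p = 0.0187) or −1172 bp without replicate 1 or 3 of Kelly pLKO (exact permutation p = 0.02). In the full lists, which are longer with shAhR-2, the HAND2 distal value was 4039 bp, higher with shAhR-2.

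Set against shAhR-1, shAhR-2 gave more covered bases at HAND1. The promoter difference was 505 bp and the distal difference 2952 bp (exact permutation p = 0.005 for each, the smallest this design allows; adjusted p = 0.0396 and 0.0198). The shAhR-2 libraries were above all shAhR-1 libraries of their line in both lines. Over the genome 19.2% of 4-kb tiles and 37.7% of 200-kb tiles were called higher in this comparison, and 0.252% and 0.463% lower. HAND2 differed by 590 bp at the promoter and 472 bp at the distal stretch, neither past the threshold (exact permutation p = 0.155 and 0.6). Without replicate 1 of Kelly shAhR-1 the HAND2 promoter difference was 1019 bp and the HAND1 distal difference 4520 bp (exact permutation p = 0.005 for each). With lists shortened by fold the HAND1 promoter difference turned to −544 bp (exact permutation p = 0.02). The comparisons with pLKO share its libraries, and the comparison of the shRNAs shares those of both. For no stretch did the difference between the lines in the response to an shRNA pass the exact permutation test (lowest p = 0.08, at the HAND2 promoter for shAhR-2 against pLKO).

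Some HAND1 and HAND2 regions had a peak in every library of 1 condition and in none of the other. In lists of equal length, in Kelly 3 of 10 HAND1 and HAND2 regions tested were lost with shAhR-2 against pLKO, against 3.56% of all regions, and 0 were gained, against 3.49%. All 3 were upstream of HAND1, at chr5:153865383-153866548, chr5:153896595-153897256 and chr5:153903026-153903824, the Kelly parts of the regions 8.15, 39.6 and 45.5 kb upstream. This excess depended on the list length, which replicate 1 of Kelly shAhR-1 set. Without that library the Kelly lists were longer. In them 1 of 22 was lost, against 3.76% of all regions, and 0 were gained, against 4.48%. In BE2C 3 of 25 were lost, against 3.7%, and 0 gained, against 4.14%. These lay 39.1 and 11.1 kb downstream of HAND2 (chr4:174411661-174412592 and chr4:174440000-174440652) and 48.3 kb upstream of HAND1 (chr5:153905661-153906558). Lost means below the strongest 9204 or 25660 peaks: in the full lists of shAhR-2 each of these 6 regions still had a peak in all 3 libraries. In the full lists the direction turned, with 5 of 38 members gained in Kelly (12.4% of all regions), 2 of 40 gained in BE2C (13.9%) and 0 lost in either (0.224% and 0.165%).

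With shAhR-1 no member was gained or lost against pLKO, 0 of 9 in Kelly and 0 of 25 in BE2C. Leaving out 1 library gave 0 to 2 over both lines: 2 of 19 lost without replicate 1 of Kelly shAhR-1 (2.36% of all regions), and 1 without replicate 3 of Kelly shAhR-1 (3.6%), 2 of BE2C pLKO (2.97%), or 1 or 2 of BE2C shAhR-1 (3.61% and 2.73%), while 1 was gained without replicate 1 of BE2C pLKO (2.0%). Over all regions 1.45% were gained in Kelly and 1.47% in BE2C, while 1.76% and 1.81% were lost. Between the shRNAs, the region 8.15 kb upstream of HAND1 was lost with shAhR-2 in Kelly, 1 of 10, against 3.44% of all regions, and 0 were gained, against 3.98%. Without replicate 1 of Kelly shAhR-1, in longer lists, 0 of 18 were lost (6.93% of all regions) and 2 gained (6.46%). In BE2C 2 of 22 were lost with shAhR-2 (2.2% of all regions), both downstream of HAND2 (chr4:174407939-174408605 and chr4:174440000-174440652), and 1 was gained (3.37%), 16.5 kb downstream of HAND1 (chr5:153841026-153841670).

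Ranks within the equal-length lists separated a larger set of regions with shAhR-2. A region was counted as lower when its strongest peak ranked behind in all 3 libraries of the first condition than in all 3 of the second, with an absent peak placed past the end, and regions were tested when all 3 libraries of a condition had the peak; 3 against 3 cannot pass an exact test at 0.05. In BE2C 9 of 18 members ranked lower with shAhR-2 than with pLKO, against 25.6% of all regions, and 2 ranked higher, against 28.6%. In Kelly 3 of 6 ranked lower, against 19.2%, and 1 higher, against 23.1%. At the region 39.6 kb upstream of HAND1 the BE2C ranks were 2572, 2710 and 2932 with pLKO, 8406, 3368 and 6213 with shAhR-1 and 8483, 7335 and 7134 with shAhR-2. The 3 pLKO libraries were ahead of all 6 with an shRNA. In Kelly this region ranked 6976, 6754 and 5393 with pLKO and past the 9204th peak in the 3 shAhR-2 libraries.

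The region 8.15 kb upstream of HAND1 ranked 2682, 3004 and 2643 in BE2C pLKO, 4981, 1044 and 2808 with shAhR-1 and 8976, 7048 and 8861 with shAhR-2. The shAhR-2 libraries were behind all others. The region 45.5 kb upstream ranked 5427, 4204 and 5954 in Kelly pLKO. It was past the end in Kelly shAhR-2 and ranked 4516, 5866 and 4288 in BE2C shAhR-2, behind 2933, 2795 and 3233 with pLKO. The region 98.3 kb upstream went the other way in Kelly, with ranks 3030, 4178 and 4391 with shAhR-2, 7283 and 7481 in 2 pLKO libraries and past the end in the third. The regions 80.2 kb downstream and 27.7 kb upstream of HAND1 ranked higher in BE2C shAhR-2 than in pLKO. The region 32.2 kb downstream, on the SAP30L side, overlapped between pLKO and shAhR-2 in both lines.

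Both promoters ranked lower in BE2C shAhR-2 by −log10 p. The HAND1 promoter ranked 5024, 5560 and 4955 with pLKO, 9586, 7097 and 8589 with shAhR-1, and 9988, 9897 and 11895 with shAhR-2. The 3 conditions followed each other without overlap. The HAND2 promoter ranked 11707, 15927 and 12732 with pLKO, 14895, 14846 and 10105 with shAhR-1, and 16538, 16124 and 20806 with shAhR-2, the last behind the other 6. In Kelly the HAND1 promoter ranks by −log10 p overlapped between pLKO and shAhR-2. No HAND2 region was tested there, since none had a peak among the 9204 strongest in all 3 libraries of a condition.

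**Figure D4:**
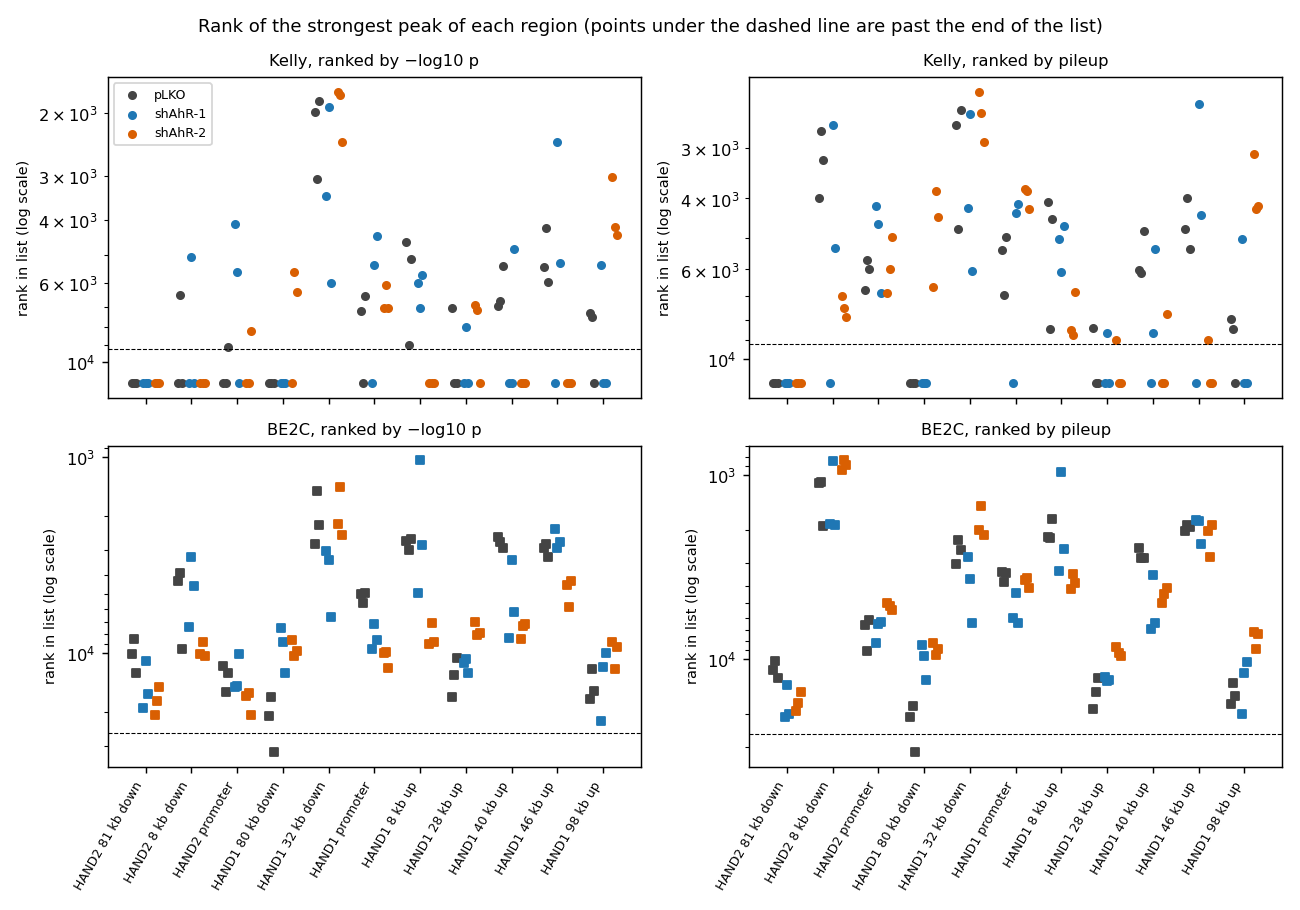
Rank of the strongest peak of 11 regions (x axis) in each library, by −log10 p (left) and by pileup (right), on a log axis with stronger peaks at the top; circles are Kelly and squares BE2C, colours are conditions, and points under the dashed line were past the end of the length-matched list. In BE2C the shAhR-2 points of both promoters lie under the pLKO points on the left, and on the right they lie above them at HAND2 and among them at HAND1; at 39.6 kb upstream of HAND1, marked 40 kb, they lie under them on both sides.

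The promoter ranks differed with the order used. When peaks were ordered by their pileup, an order added after the data were seen, 5 of 21 members in BE2C ranked lower with shAhR-2 than with pLKO, against 27.7% of all regions, and 10 ranked higher, against 31.7%. The HAND2 promoter and the region 7.61 kb downstream were then higher with shAhR-2, and the HAND1 promoter overlapped. In Kelly the HAND1 promoter ranked higher with shAhR-2 by pileup, at 3788 to 4246 against 4981 to 6949, and the HAND2 promoter overlapped. Of the Kelly members, 4 of 10 ranked lower, against 19.2%, and 3 higher, against 23.2%. The local background at these peaks differed between the groups. At the HAND1 promoter in BE2C it was 4.77, 5.06 and 6.83 times the genome-wide background with pLKO and 10.6, 10.9 and 9.56 times with shAhR-2. At the HAND2 promoter it was 5.29, 5.46 and 8.61 times with pLKO and 12.3, 11.7 and 11.2 times with shAhR-2. The shAhR-2 values were above all pLKO values at both, while the median over all peaks of a list was lower with shAhR-2 in BE2C, at 1.29 to 1.41 against 1.68 to 1.72. The part of the local background in the ranks by −log10 p was not tested.

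Members that ranked lower with shAhR-2 than with pLKO in both orders numbered 5 of 17 in BE2C, against 23.7% of all regions, and 2 of 6 in Kelly, against 15.2%. In BE2C these were 81.4 and 39.1 kb downstream of HAND2 and 8.15, 39.6 and 48.3 kb upstream of HAND1. In Kelly they were 39.6 and 45.5 kb upstream of HAND1. Higher in both orders were 2 members in BE2C (80.2 kb downstream and 27.7 kb upstream of HAND1), against 25.6%, and 1 in Kelly (98.3 kb upstream of HAND1), against 19.3%. The region 39.6 kb upstream of HAND1 was lower in both orders and both lines, 1 of 6 members tested, against 7.64% of all regions, and 0 were higher in both, against 9.59%. Its pileup was 46.3, 52.2 and 64.7 times the genome-wide background in BE2C pLKO and 44.5, 45.7 and 38.6 times in shAhR-2. In Kelly it was 37.2, 15.6 and 42.9 times with pLKO and 25.1, 17.7 and 32.1 times with shAhR-2, where replicate 2 of pLKO was the lowest. These ratios did not overlap in BE2C and overlapped in Kelly. The Kelly counts in both orders are given only for lists whose length was set by replicate 1 of Kelly shAhR-1.

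**Figure D5:**
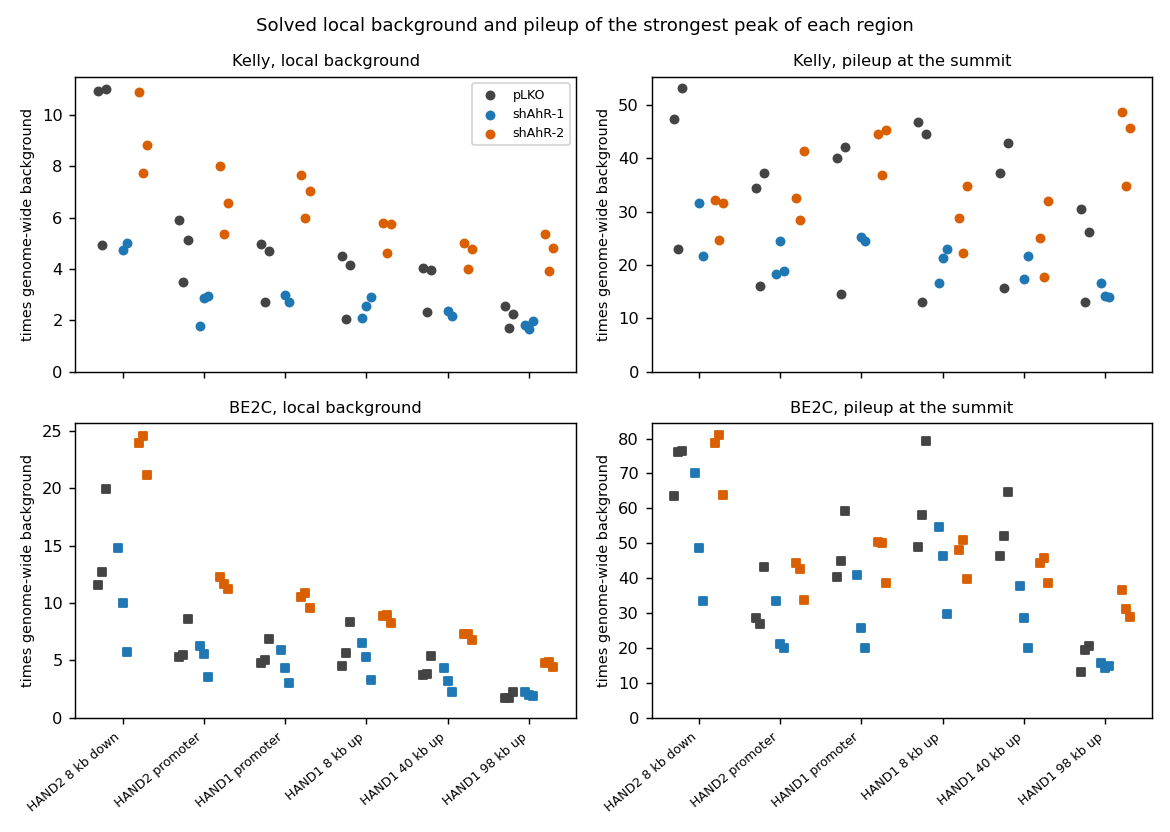
Local background (left) and pileup (right) at the strongest peak of 6 regions, each divided by the genome-wide background of its library; circles are Kelly, squares BE2C, colours are conditions, and a library without a peak has no point. In BE2C the shAhR-2 points lie above the pLKO points in local background at the 6 regions except at 8.15 kb upstream of HAND1, marked 8 kb up, where the highest pLKO library reaches 8.38 against 8.3 to 8.97.

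With shAhR-1, 6 BE2C members and 0 Kelly members were separated from pLKO in rank. In BE2C 5 of 18 ranked lower than with pLKO, against 15.2% of all regions, and 1 higher, against 11.9%. The lower ones were the HAND1 promoter, the regions 32.2 kb downstream and 39.6 and 48.3 kb upstream of HAND1, and the region 39.1 kb downstream of HAND2; the higher one was 80.2 kb downstream of HAND1. In Kelly 0 of 4 ranked lower (15.4% of all regions) and 0 higher (8.19%). Without replicate 1 of Kelly shAhR-1, 3 of 12 ranked lower (20.3%) and 1 higher (18.8%). The lower count was 1 of 5 without replicate 2 of pLKO (27.8%), 1 of 4 without replicate 2 of shAhR-1 (23.5%) and 1 of 5 without replicate 3 of shAhR-1 (24.6%). The higher counts in these were 0 (12.5%), 0 (13.5%) and 1 (13.9%). For shAhR-2 against pLKO in Kelly, lists were lengthened by the omission of that shortest library, replicate 1 of shAhR-1. In them 5 of 13 members ranked lower (19.5% of all regions) and 2 higher (25.1%). Between the shRNAs, 7 of 17 BE2C members ranked lower with shAhR-2 than with shAhR-1 (19.5% of all regions) and 3 higher (25.8%), both promoters among the lower ones. By pileup this turned: 2 of 21 were lower (21.6% of all regions) and 10 higher (28.5%), and both promoters ranked higher with shAhR-2, at 4959 to 5449 against 6332 to 8222 for HAND2 and 3647 to 4120 against 4388 to 6351 for HAND1. In Kelly 1 of 4 ranked lower (16.2%), the region 8.15 kb upstream of HAND1, and 1 higher (28.4%), the region 98.3 kb upstream. Without replicate 1 of Kelly shAhR-1, 5 of 12 were lower (26.1%) and 3 higher (32.1%). Without its replicate 3, 2 of 5 were lower (22%) and 1 higher (35.4%).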

How the data were processed

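ATAC-seq was done on 18 libraries (50K cells each, per the labels' protocols). Per the submitters' processing notes the build was hg19. The notes list MACS2 2.1.0, BWA 0.7.17, deepTools 3.1.3, Trimmomatic 0.33 and CASAVA 1.8.2 without roles. How duplicates were treated, and whether read ends were shifted for the transposase, which moves summits slightly, is not given in the sources used here. The authors deposited 1 peak list per library, without pooling. Each peak carries a deposited score, a fold enrichment deposited as a linear ratio, and a −log10 p and −log10 q deposited as the caller gave them, with q up to 0.05. Absence of a peak means that none passed.

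Peaks on chromosomes 1 to 22 and X were used, with Python 3.11.15, numpy 2.4.6, pandas 2.3.3 and SciPy 1.17.1. Promoters were the 2 kb on each side of the gene start, the higher end of the body since both genes read on the minus strand. Lists were shortened by −log10 p. Covered bases were compared with two-sided exact permutation tests: 8000 arrangements of line within condition, 400 of condition within line. The same test ran on all tiles of 4 kb or 200 kb with a peak, with Benjamini-Hochberg adjustment over the tiles; a call is an unadjusted p under 0.05. The test of condition within line was checked on simulated tiles with known shifts. It recovered 98.0% to 99.5% of the shifted tiles and called 2.11% to 2.28% of the unchanged ones. The size of these shifts is not stated here, so the recovered share does not give the power at HAND1 and HAND2. No such check is given for the test of line within condition. Pileup and local background were solved from fold = (pileup + 1)/(background + 1) and a Poisson tail, to 0.01 in −log10 p; this worked for 99.7% or more of the peaks per list (fold 1.5 and above), except for 83.6% in Kelly shAhR-1 replicate 1. The regions named by rule are the promoters, those with a peak in all 9 libraries of a line in lists of 9204, and those present in every library of 1 side and none of the other, at most 12 per locus. The regions 81.4, 23.7 and 7.61 kb downstream and 7.85 and 27.1 kb upstream of HAND2, and 80.2 kb downstream and 27.7 and 98.3 kb upstream of HAND1, were chosen after their values were seen. So were the comparison of ranks, the order by pileup and the window around the summit. The members and lists were chosen with earlier results of these data known. Other adrenergic regulators were not analysed here, since gene starts on hg19 were not used. Alternatives are in the closing section.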

Additional observations from a re-analysis of the deposited data

How the results depend on the processing

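Values are differences in covered bp, first group minus second, in the order HAND2 promoter, HAND2 distal, HAND1 promoter, HAND1 distal unless named. In the full lists BE2C minus Kelly became 190.6 at the HAND2 and 297 at the HAND1 promoter, and with −log10 q of at least 5 it became 217 and 297. shAhR-1 minus pLKO was −145, −3222, −318 and −2677 in the full lists and −25.2, −3178, −318 and −2502 at that q; shAhR-2 minus pLKO was 899 and 4039 at HAND2 in the full lists and 1070 and 4198 at that q; shAhR-2 minus shAhR-1 was 1044 and 7262, and 1095 and 7376, at HAND2. These shAhR-1 values, except at the HAND2 promoter, passed the unadjusted threshold, as did the HAND1 promoter line difference of 297 and these shAhR-2 values. Members on 1 side alone numbered 4 for shAhR-1 against pLKO in the full lists, all lost (2 of 26 in Kelly, 2.0% of all regions; 2 of 32 in BE2C, 1.43%), 3 at that q, all lost in Kelly (of 20; 2.58%), and 1 where a peak had to cover 50% of a region, lost in BE2C (of 24; 1.72%). For shAhR-2 against pLKO they numbered 11 at that q, all gained (6 of 32 in Kelly, 15.5%, and 5 of 33 in BE2C, 19.4%). At 50% coverage the members on 1 side alone in that comparison were 2 of 10 lost (2.57%) and 0 gained (4.77%) in Kelly. In BE2C they were 2 of 25 gained (10.4%) and 2 lost (2.24%). Between the shRNAs they numbered 11 in the full lists, all gained (6 of 36, 18.8%; 5 of 39, 15.4%), 17 at that q, all gained (9 of 31, 27.2%; 8 of 32, 21.4%), and 7 at 50% coverage (2 of 10 gained in Kelly, 11.8%; 4 of 22 gained, 10.1%, and 1 lost, 0.854%, in BE2C).

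Shortening by fold gave 352 and 738 for the distal line differences, 36.0 for the HAND1 promoter with shAhR-1 against pLKO, −61.5, −508 and −657 (HAND2 promoter, both HAND1 stretches) for shAhR-2 against pLKO, and −284, −605, −544 and 256 between the shRNAs. Counting peaks instead of bases gave 0.556 and 1.11 peaks for the distal line differences, 0.167 and −1.0 for shAhR-2 against pLKO at HAND1, and −0.333, −2.0, 0.167 and 0.167 between the shRNAs. With 200 bp on each side of summits, added after seeing the data, the corresponding values were 222 and 444, 66.7 and −400.0, and −133, −800.0, 66.7 and 66.7 bp. Windows of 1 kb and 50 kb gave 601 and 1825 at the HAND1 distal stretch for shAhR-2 less pLKO and less shAhR-1. The cause of these changes was not tested. By pileup, lower ranks numbered 1 of 8 (14% of all regions; 0 higher, 8.16%) for shAhR-1 against pLKO in Kelly, 5 of 21 (27.7%; 10 higher, 31.7%) for shAhR-2 against pLKO in BE2C, and 2 of 21 (21.6%; 10 higher, 28.5%) between the shRNAs in BE2C.

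Leaving out 1 library at a time gave, for BE2C minus Kelly, −384 to −32.6, 755 to 2558, −199 to 244 and 2015 to 2849. It gave −59.7 to 338, −2236 to −1223 and −350 to −117 for shAhR-1 against pLKO at HAND2 and the HAND1 promoter. For shAhR-2 against pLKO it gave 607 to 1070, −1862 to −783, 155 to 388 and 1519 to 3184. Between the shRNAs it gave 402 to 1019 at the HAND2 promoter. Members on 1 side alone ran from 0 to 2, 4 to 7 and 4 to 6 in the 3 comparisons with an shRNA, and lower ranks in Kelly from 0 to 3, 3 to 5 and 1 to 5. Replicate numbers did not pair libraries (2 of 18 pairs with r over 0.1, from −0.466 to 0.13). With the replicate block the HAND1 distal difference of 1735 bp for shAhR-2 against pLKO had an exact permutation p of 0.0938, and no other call at an unadjusted p changed; the adjusted p became 0.0582 for the HAND1 distal line difference and 0.215 and 0.107 for the HAND1 promoter and distal differences between the shRNAs. Depth is known only through list length and background.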
